A study of Mus musculus with 9 samples.

Results

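The proteasome genes were the 50 protein-coding genes, of 47937 in the count table, whose symbols begin with Psm, a letter from a to g and a number. They comprised the 31 constitutive subunits of the 26S proteasome (7 alpha ring, 7 beta ring, 6 ATPase and 11 non-ATPase genes) and the 5 inducible genes Psmb8, Psmb9, Psmb10, Psme1 and Psme2. The others were the activators Psme3 and Psme4, the inhibitor Psmf1, 7 assembly factors, the tissue-specific Psma8 and Psmb11, and 2 symbols that match the pattern but name no standard subunit, Psme2b and Psmc3ip. RNA was sequenced from 9 libraries of CD4+ T cells purified on magnetic beads from spleens of C57BL/6 mice and selected for CD62L, a surface protein of naive cells. TEPP-46 cells (Th0_TEPP, 3 libraries) were first kept for 15 min in TEPP-46, an activator of the glycolytic enzyme PKM2, and then stimulated through CD3 and CD28 by antibodies coated on plates. Control cells (Th0_Ctrl, 3 libraries) had DMSO and the same stimulation, and resting cells (Resting, 3 libraries) had neither. The labels give the dose only as a range of 50 to 100 µM for all TEPP-46 libraries, and no source used here gives how long cells were activated. Libraries are numbered 1, 4 and 5 in each group, and values below are in that order.

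The proteasome degrades ubiquitin-tagged proteins. Its 20S core is a barrel of alpha and beta rings in which the beta subunits Psmb5, Psmb6 and Psmb7 carry the proteolytic sites, and its 19S regulatory particle recognises, unfolds and feeds in the substrate. Lymphocytes also assemble immunoproteasomes, in which Psmb8 stands in for Psmb5, Psmb9 for Psmb6 and Psmb10 for Psmb7, and whose peptides supply MHC class I molecules. Psme1 and Psme2 form an alternative cap on the core, and all 5 inducible genes are textbook targets of interferon gamma.

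Total counts ran from 2397304 to 5030643 per library, 49 of the 50 genes had at least 1 count and 48 passed the filter on low counts. Psmb11, the thymus-specific catalytic subunit, had 0 counts in every library, below a floor of 3 counts that corresponded to 0.596 to 1.25 CPM (counts per 1000000 counts), and the testis-specific Psma8 had 3 counts in each of 2 control libraries and 0 elsewhere. All 8 T cell markers were detected in each group, at a summed 6873 to 8666 CPM in TEPP-46 cells, 4450 to 5886 CPM in control cells and 4475 to 8252 CPM in resting cells. The TEPP-46 libraries differed most among themselves: the median SD of log2 CPM over the tested proteasome genes was 0.53 in TEPP-46 cells, 0.12 in control cells and 0.17 in resting cells, against 0.52, 0.20 and 0.31 over all genes tested. The correlation of log2 CPM over all genes tested was 0.818 between TEPP-46 replicates 1 and 4, 0.914 between 1 and 5 and 0.896 between 4 and 5, against 0.972 to 0.983 among control libraries. Among resting libraries replicate 1 stood apart: its pairs gave 0.937 and 0.938, while the remaining pair gave 0.977. Nothing in the labels says that libraries came from separate animals, so the spread behind each p-value is that between libraries only, which may be technical.

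The catalytic subunit Psmb10 was the one inducible gene that passed the threshold of an adjusted p under 0.05 in the main fit. It did so in both main comparisons. Psmb10 (ENSMUSG00000031897.8, chromosome 8, 105935735 to 105938444, GRCm38) had 112, 94.5 and 107 CPM in TEPP-46 cells and 29.4, 39.6 and 36.0 CPM in control cells, against 75.0, 147 and 154 CPM in resting cells. Every control library was below every other library, and the TEPP-46 and resting libraries overlapped. In TEPP-46 cells Psmb10 rose 2.99-fold over control cells (log2 fold change 1.58 ± 0.28 SE, edgeR quasi-likelihood adjusted p = 0.00782). In control cells it fell relative to resting cells, by 1.84 ± 0.28 on the log2 scale (edgeR adjusted p = 0.00156). Both comparisons use the same 3 control libraries, so they are not independent. The TEPP-46 and resting cells share no library, and their difference was -0.26 ± 0.27 (edgeR adjusted p = 0.587). Psmb10 passed the threshold in both main comparisons under all 16 alternative settings, among them the omission of each library in turn, with log2 fold changes of 1.45 to 1.67 in TEPP-46 over control cells and of -2.10 to -1.67 in control over resting cells.

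**Figure D1:**
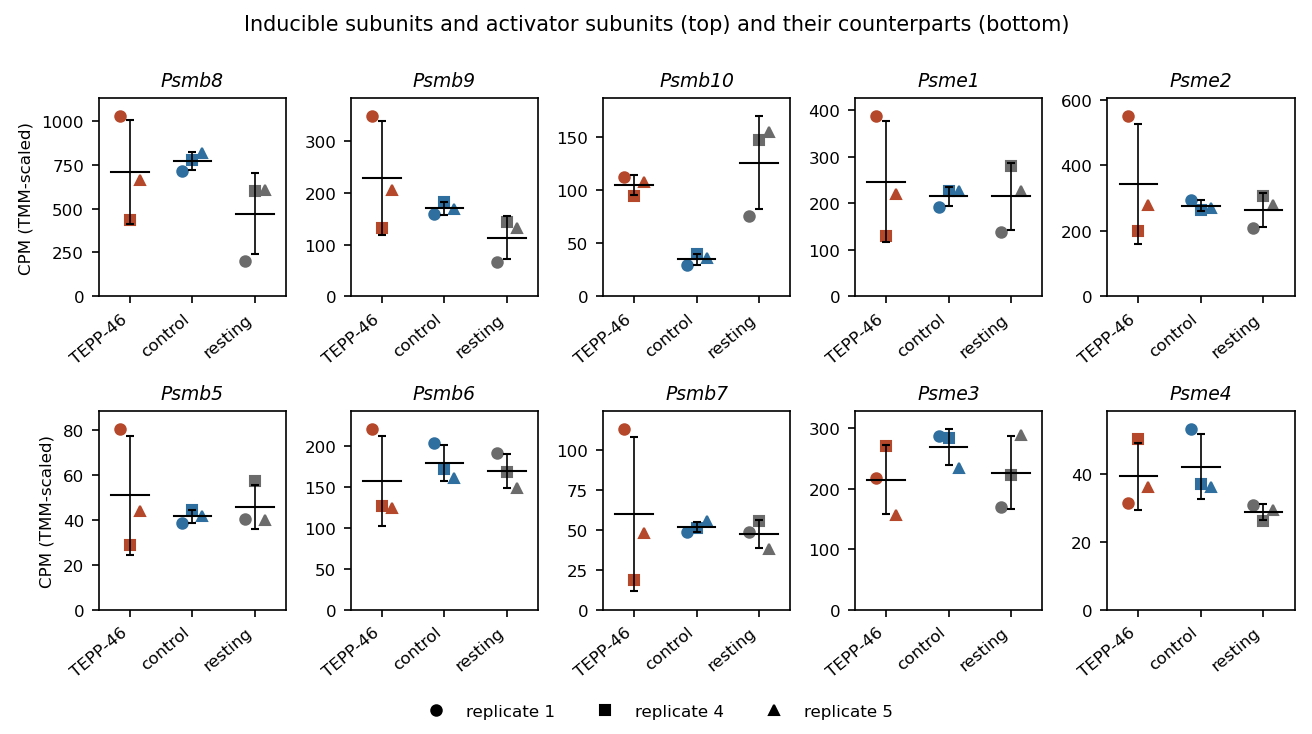
CPM (TMM-scaled) of the 5 inducible genes (top) and of Psmb5, Psmb6, Psmb7, Psme3 and Psme4 (bottom) in TEPP-46, control and resting cells. Points are libraries, with the replicate number as the symbol, horizontal lines are means and bars are ± 1 SD (n = 3). The 3 control libraries of Psmb10, at 29.4 to 39.6 CPM, lie below all other libraries, while the groups overlap for Psme1 and Psme2.

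Psmb8 (chromosome 17, 34197721 to 34201454) was the most abundant catalytic subunit and did not follow Psmb10. It had 1028, 437 and 662 CPM in TEPP-46 cells and 714, 779 and 818 CPM in control cells, against 204, 601 and 609 CPM in resting cells. The control libraries were above all resting libraries, of which replicate 1 was lowest by a wide margin, while the TEPP-46 libraries lay on both sides of the controls. Its log2 fold change was -0.12 ± 0.41 in TEPP-46 over control cells (edgeR adjusted p = 0.86) and 0.71 ± 0.41 in control over resting cells (edgeR adjusted p = 0.211). An antisense gene, Gm20496, shares 498 exon bases with Psmb8 and holds 14057 counts to the 22329 of Psmb8, and without knowledge of the strand setting their reads cannot be told apart.

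Psmb9 (chromosome 17, 34181987 to 34187764) had 348, 132 and 206 CPM in TEPP-46 cells and 159, 183 and 168 CPM in control cells, against 66.0, 143 and 132 CPM in resting cells. Control libraries were above all resting libraries, and the TEPP-46 libraries overlapped both. The log2 fold changes were 0.43 ± 0.36 in TEPP-46 over control cells (edgeR adjusted p = 0.428), 0.58 ± 0.36 in control over resting cells (edgeR adjusted p = 0.245) and 1.01 ± 0.37 in TEPP-46 over resting cells (edgeR adjusted p = 0.108). Psmb9 shares 212 exon bases with its opposite-strand neighbour Tap1, a peptide transporter gene, and 12.5% of its 50-base words.

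The cap subunits Psme1 and Psme2 had group means that lay close together. Psme1 had 387, 130.2 and 220.3 CPM in TEPP-46 cells and 191, 225 and 227 CPM in control cells, against 137, 280.4 and 226 CPM in resting cells. Psme2 had 549.8, 199 and 279 CPM in TEPP-46 cells and 295, 263 and 270.5 CPM in control cells, against 207, 307 and 278 CPM in resting cells. The TEPP-46 libraries of both genes enclosed all control libraries. Neither gene passed the threshold in TEPP-46 over control cells (0.20 ± 0.37 and 0.31 ± 0.33) or in control over resting cells (0.00 ± 0.37 and 0.06 ± 0.33).

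Resting replicate 1 was low in all 5 inducible genes. Its median log2 difference from the mean of resting replicates 4 and 5 was -1.0 over the 5 inducible genes, 0.05 over the 31 constitutive subunits and -0.01 over all genes tested. Without resting replicate 1, Psmb10 remained called in TEPP-46 over control cells and in control over resting cells.

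The constitutive counterparts did not move with Psmb10. Psmb7, the subunit that Psmb10 replaces, had 113, 18.5 and 48.2 CPM in TEPP-46 cells and 48.8, 51.1 and 55.2 CPM in control cells, against 48.7, 55.5 and 37.6 CPM in resting cells. Psmb5 had 80.0, 28.6 and 43.7 CPM in TEPP-46 cells and 38.5, 44.4 and 41.6 CPM in control cells, against 40.4, 57.0 and 39.6 CPM in resting cells. Psmb6 had 221, 126 and 125 CPM in TEPP-46 cells and 204, 173 and 162 CPM in control cells, against 192, 169 and 149 CPM in resting cells. All 3 genes overlapped between every pair of groups, and their log2 fold changes were -0.19 to 0.30 in TEPP-46 over control cells and -0.14 to 0.13 in control over resting cells. Psmb7 shares 405 exon bases with Nek6 on the opposite strand, and 28.1% of its 50-base words. Nek6 holds 1735 counts to the 1860 of Psmb7. It had 62.15, 18.5 and 25.6 CPM in TEPP-46 cells and 96.6, 76.6 and 88.2 CPM in control cells, against 26.55, 28.5 and 18.0 CPM in resting cells. For Psmb5, 57.1% of the 50-base words also occur in other genes, mainly the predicted gene Gm3375, which held at most 6 counts in a library.

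Ratios within a library do not depend on how libraries are scaled. Counts of Psmb10 per count of Psmb7 were 0.995, 5.11 and 2.23 in TEPP-46 cells and 0.603, 0.775 and 0.653 in control cells, against 1.54, 2.66 and 4.09 in resting cells. Counts of Psmb8 per count of Psmb5 were 12.9, 15.3 and 15.1 in TEPP-46 cells and 18.6, 17.6 and 19.7 in control cells, against 5.04, 10.5 and 15.4 in resting cells. Counts of Psmb9 per count of Psmb6 were 1.57, 1.05 and 1.66 in TEPP-46 cells and 0.779, 1.06 and 1.04 in control cells, against 0.344, 0.848 and 0.882 in resting cells. The control libraries thus had the lowest Psmb10 to Psmb7 ratio and the highest Psmb8 to Psmb5 ratio of the 9 libraries. Reads of Nek6, which was highest in control cells, may enter the Psmb7 counts. Their part in the Psmb10 to Psmb7 ratio was not tested.

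The mean log2 ratio of Psmb10 to Psmb7 was 1.73 higher in TEPP-46 than in control cells and 1.92 lower in control than in resting cells (difference -1.92), each with an exact two-sided permutation p of 0.1, the smallest that 3 against 3 libraries can give, and 0.3 after Benjamini-Hochberg adjustment over 15 ratio comparisons. The SD of this log2 ratio was 1.17 in TEPP-46 cells, 0.18 in control cells and 0.70 in resting cells. The highest TEPP-46 ratio, in replicate 4, rested on 44 counts of Psmb7. For Psmb8 to Psmb5 the differences were -0.37 in TEPP-46 over control cells and 0.99 in control over resting cells, both without overlap of the libraries and both with the same exact p of 0.1. For Psmb9 to Psmb6 they were 0.56 (exact p = 0.2) and 0.58 (exact p = 0.3), with overlapping libraries. The ratios of Psme1 and of Psme2 to Psme3, the subunit of the nuclear cap, differed by 0.41 and 0.53 in TEPP-46 over control cells and by -0.22 and -0.19 in control over resting cells, with overlapping libraries in each case.

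The 3 inducible catalytic subunits were also set against each other, a choice made after their values were seen. Counts of Psmb10 per count of Psmb8 were 0.109, 0.216 and 0.162 in TEPP-46 cells and 0.0412, 0.0508 and 0.0441 in control cells, against 0.368, 0.245 and 0.253 in resting cells. Counts of Psmb10 per count of Psmb9 were 0.323, 0.714 and 0.521 in TEPP-46 cells and 0.186, 0.216 and 0.214 in control cells, against 1.14, 1.03 and 1.17 in resting cells. In both ratios the TEPP-46 libraries lay between the control libraries below and the resting libraries above, with no overlap between any pair of groups (exact p = 0.1 for each of the 6 comparisons, the smallest possible).

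**Figure D2:**
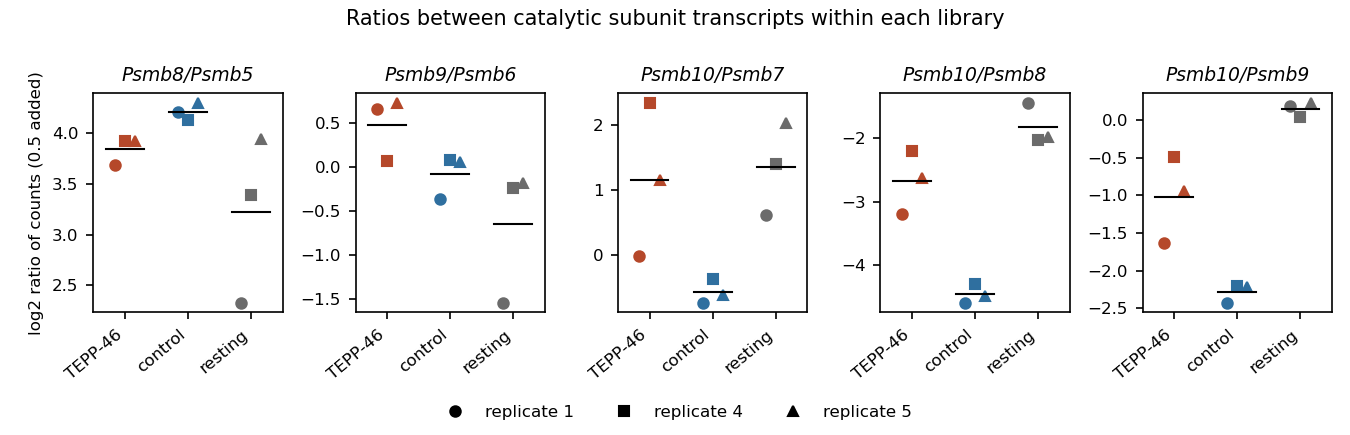
Log2 ratio of counts (0.5 added to each) of pairs of catalytic subunit genes within each library, for TEPP-46, control and resting cells. Points are libraries, with the replicate number as the symbol, and lines are group means (n = 3). In the panels of Psmb10 to Psmb8 and Psmb10 to Psmb9 the 3 groups do not overlap, with the control libraries lowest and the TEPP-46 libraries between control and resting libraries.

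Promoter windows of 4 inducible genes are shown because Psmb10 alone of the 5 inducible genes was called in the main fit. The windows run from 250 bases before to 50 bases after the RefSeq start (GRCm38.p6), are written 5′ to 3′ on the strand of the gene, and hold in capitals any match to 4 motifs searched on both strands: TGACNNNGC (antioxidant response element core), GAAA followed after any 2 bases by GAAA (interferon response), CCAAT (NF-Y box) and TTCNNNGAA (STAT). They cover chr8:105938343-105938642 (Psmb10, minus strand), chr17:34197945-34198244 (Psmb8, plus strand), chr17:34187281-34187580 (Psmb9, minus strand) and chr14:55578244-55578543 (Psme1, plus strand).
Psmb10: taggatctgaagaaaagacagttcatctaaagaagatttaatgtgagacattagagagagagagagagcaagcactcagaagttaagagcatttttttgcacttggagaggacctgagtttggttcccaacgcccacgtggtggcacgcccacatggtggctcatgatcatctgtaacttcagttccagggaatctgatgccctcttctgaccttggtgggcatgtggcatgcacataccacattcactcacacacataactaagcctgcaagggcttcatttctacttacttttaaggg
Psmb8: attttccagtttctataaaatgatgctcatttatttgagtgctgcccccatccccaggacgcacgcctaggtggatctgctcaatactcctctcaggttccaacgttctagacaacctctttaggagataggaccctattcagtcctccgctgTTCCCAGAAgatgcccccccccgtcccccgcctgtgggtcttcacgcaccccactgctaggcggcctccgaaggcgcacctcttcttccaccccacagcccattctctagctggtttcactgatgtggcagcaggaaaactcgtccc
Psmb9: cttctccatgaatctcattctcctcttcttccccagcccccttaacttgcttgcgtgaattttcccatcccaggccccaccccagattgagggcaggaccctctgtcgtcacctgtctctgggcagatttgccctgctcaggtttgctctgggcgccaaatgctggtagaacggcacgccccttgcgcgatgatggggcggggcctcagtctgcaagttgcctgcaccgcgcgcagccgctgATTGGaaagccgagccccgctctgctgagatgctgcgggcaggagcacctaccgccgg
Psme1: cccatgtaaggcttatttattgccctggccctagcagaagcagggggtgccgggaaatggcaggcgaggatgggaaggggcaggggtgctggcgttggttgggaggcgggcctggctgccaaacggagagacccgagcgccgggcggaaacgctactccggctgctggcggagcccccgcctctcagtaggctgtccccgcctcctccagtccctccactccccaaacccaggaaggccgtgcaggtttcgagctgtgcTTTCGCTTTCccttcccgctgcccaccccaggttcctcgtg
The Psmb10 window held none of the 4 motifs, and neither did the windows of Psme2, which are not shown. The capitals mark a STAT motif at position -97 from the start in Psmb8, a CCAAT box read on the other strand at position -8 in Psmb9, and an interferon response motif read on the other strand at position 9 in Psme1. The start site of each window lay inside the wider bounds of that gene in GENCODE M21, so other annotated starts were not searched. Windows were found for 42 of the 50 proteasome genes, of which 6 held the antioxidant core (14.3%, against 14% of all genes with a window), 5 the interferon motif (11.9%, against 3.99%), 15 the CCAAT box (35.7%, against 41.1%) and 3 the STAT motif (7.14%, against 9.55%). The interferon motif lay in 1 of the 5 inducible genes (Psme1) and in 2 of 25 constitutive subunits with a window (Psmb3 and Psmd4). The others with it were Psmd9 and Psmg4, and none of these genes was called in the main fit. A match describes letters in a window and not a bound site.

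Expressed per kilobase of the principal transcript, which allows genes to be compared, Psmb8 was the most abundant of the 50 genes in each group. Psmb8 averaged 435 ± 183 CPM per kilobase in TEPP-46 cells and 473 ± 32.1 in control cells, against 289.5 ± 142 in resting cells (SD, n = 3). Its counterpart Psmb5 averaged 56.5 ± 29.4 CPM per kilobase in TEPP-46 cells and 46.2 ± 3.28 in control cells, against 50.8 ± 10.9 in resting cells. The ratio of Psmb8 to Psmb5 per length was 2.79 to 10.9 over the 9 libraries. Other genes share 57.1% of the 50-base words of Psmb5 and 5.83% of those of Psmb8. How shared reads were counted is not known, so this ratio is uncertain. Psmb9 was below Psmb6 per length in every library, with ratios of 0.203 to 0.977. Psmb10 averaged 79.9 ± 6.97 CPM per kilobase in TEPP-46 cells and 26.7 ± 3.94 in control cells, against 95.7 ± 33.4 in resting cells, and its rank among the 50 genes was 25 in TEPP-46 cells and 40 in control cells, against 16 in resting cells. With the union of all annotated exons as length, Psmb8 ranked behind Psme2 in resting cells. 

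Of the 48 tested proteasome genes, 2 rose and 1 fell in TEPP-46 over control cells at an edgeR adjusted p under 0.05, where 16.2% of all genes tested were called, 9.72% as higher and 6.43% as lower. Besides Psmb10 these were Psme2b, which rose, and Psmg2, which fell. The libraries of both groups did not overlap for 3 higher and 4 lower proteasome genes, against 39.7% of all genes, 19.7% higher and 20% lower. The median log2 fold change was -0.05 over the proteasome genes and 0.04 over all genes tested.

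Psmg2, a chaperone that with Psmg1 pairs alpha subunits at the start of core assembly, had 23.4, 12.2 and 13.9 CPM in TEPP-46 cells and 44.9, 48.0 and 51.2 CPM in control cells, against 23.3, 42.8 and 36.3 CPM in resting cells. All TEPP-46 libraries were below all control libraries. Its log2 fold change in TEPP-46 over control cells was -1.53 ± 0.32 (edgeR adjusted p = 0.0133). It was called under 13 of 16 alternative settings, with log2 fold changes of -1.88 to -1.36 and adjusted p of up to 0.0617, and the call was lost without control replicate 4, control replicate 5 or TEPP-46 replicate 5. Its partner Psmg1 had 43.5, 24.8 and 24.3 CPM in TEPP-46 cells and 56.2, 64.3 and 50.7 CPM in control cells, against 22.9, 38.3 and 43.3 CPM in resting cells, again without overlap between TEPP-46 and control libraries (-0.88 ± 0.32, edgeR adjusted p = 0.0794). Of the other assembly factors none passed the threshold, and neither did Pomp, the chaperone that guides beta subunits into the core, with 208, 116 and 119 CPM in TEPP-46 cells and 182, 153 and 163 CPM in control cells, against 83.5, 134 and 136 CPM in resting cells.

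Psme2b is a near-copy of Psme2 on chromosome 11 (48945354 to 48946190), and its counts are uncertain. Over 720 coding bases both genes differ at 5 bases (99.3% identity), and 541 of the 913 50-base words of Psme2 and of the 788 of Psme2b occur in both. The stretch with the densest differences is shown to make clear how little separates reads of both genes; it covers coding positions 454 to 543, with the 3 differing bases in capitals (sequences of the GENCODE M21 transcripts, GRCm38).
Psme2: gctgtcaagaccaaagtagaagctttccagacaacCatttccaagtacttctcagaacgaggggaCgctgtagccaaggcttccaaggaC
Psme2b: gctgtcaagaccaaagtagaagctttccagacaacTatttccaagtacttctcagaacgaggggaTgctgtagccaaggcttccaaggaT
Psme2b had 48.1, 34.5 and 31.7 CPM in TEPP-46 cells and 22.6, 16.3 and 18.6 CPM in control cells, against 29.0, 36.4 and 34.6 CPM in resting cells. The control libraries were below all others, as for Psmb10. The log2 fold change was 0.99 ± 0.26 in TEPP-46 over control cells (edgeR adjusted p = 0.0299) and -0.80 ± 0.26 in control over resting cells (edgeR adjusted p = 0.039). The first call held under 7 and the second under 8 of 16 alternative settings, with edgeR or DESeq2 adjusted p of up to 0.124 and 0.15, and the same alternatives gave log2 fold changes of 0.78 to 1.12 and of -0.93 to -0.68.

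None of the 31 constitutive subunits was called in TEPP-46 over control cells, with a median log2 fold change of -0.04 and a range of -0.70 to 0.34. The lowest values belonged to Psmc6, an ATPase of the base, with 179, 65.1 and 83.5 CPM in TEPP-46 cells and 165, 174 and 196 CPM in control cells (-0.70 ± 0.34, edgeR adjusted p = 0.166), and to the lid subunit Psmd7, with 191, 108 and 119.7 CPM in TEPP-46 cells and 245, 216 and 214 CPM in control cells (-0.69 ± 0.23, edgeR adjusted p = 0.0696). In the alpha ring the lowest was Psma7, with 292, 136 and 154 CPM in TEPP-46 cells and 322, 292 and 282 CPM in control cells (-0.62 ± 0.27, edgeR adjusted p = 0.139). In these 3 genes TEPP-46 replicates 4 and 5 lay below all controls, and replicate 1 lay among the controls in Psmc6 and Psma7 and below them in Psmd7. The inhibitor Psmf1, which binds the core, had 108, 104 and 101 CPM in TEPP-46 cells and 76.0, 72.7 and 78.7 CPM in control cells, against 117, 94.5 and 106 CPM in resting cells, without overlap between TEPP-46 and control libraries (0.46 ± 0.17, edgeR adjusted p = 0.0955).

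Among other ring subunits, Psma3, Psmb2 and Psmb4 had TEPP-46 libraries on both sides of the controls. Psma3, an alpha subunit, had 202, 81.1 and 124 CPM in TEPP-46 cells and 189, 168 and 160.1 CPM in control cells, against 209, 181 and 206 CPM in resting cells. Psmb2, a noncatalytic beta subunit, had 285, 109.7 and 135 CPM in TEPP-46 cells and 187, 190.1 and 166 CPM in control cells, against 137, 163 and 147 CPM in resting cells. Psmb4, also a noncatalytic beta subunit, had 122, 52.9 and 66.0 CPM in TEPP-46 cells and 68.2, 65.8 and 57.0 CPM in control cells, against 66.8, 90.6 and 60.1 CPM in resting cells. In each the replicate 1 value of TEPP-46 cells was above all controls and the replicate 4 value below all controls. Their log2 fold changes in TEPP-46 over control cells were -0.34 ± 0.29, -0.04 ± 0.32 and 0.34 ± 0.31, and none was called. Psme3, which caps nuclear proteasomes, had 218, 271 and 156 CPM in TEPP-46 cells and 288, 283 and 235 CPM in control cells, against 169, 222 and 289 CPM in resting cells, with all groups overlapping (-0.32 ± 0.26, edgeR adjusted p = 0.411). Psmc3ip, a meiotic recombination factor named for binding Psmc3, had 19.5, 12.2 and 10.3 CPM in TEPP-46 cells and 18.9, 18.2 and 19.2 CPM in control cells, against 9.05, 18.2 and 20.3 CPM in resting cells, and was not called.

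The count for the constitutive subunits rested on TEPP-46 replicate 1. Without it, 15 proteasome genes were called in TEPP-46 over control cells, of which 2 were higher and 13 lower. Of all 12982 genes tested in that fit, 33.9% were called, 2274 as higher and 2133 as lower. The lower proteasome genes included 11 of the 31 constitutive subunits (Psma3, Psma5, Psma7, Psmb1, Psmb2, Psmb3, Psmc6, Psmd7, Psmd8, Psmd12 and Psmd14). With TEPP-46 replicate 4 left out instead, the calls were the same 3 as with all libraries, where 13.8% of all genes tested were called. TEPP-46 replicate 1 was the highest of the 3 TEPP-46 libraries for 30 of the 31 constitutive subunits, against 38.3% of all genes, and replicate 4 was the lowest for 24, against 41.3% of all genes. Of all 9 libraries, replicate 1 was the highest and replicate 4 the lowest for 16 of the 31 subunits (51.6%), against 4.67% of all genes tested.

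**Figure D3:**
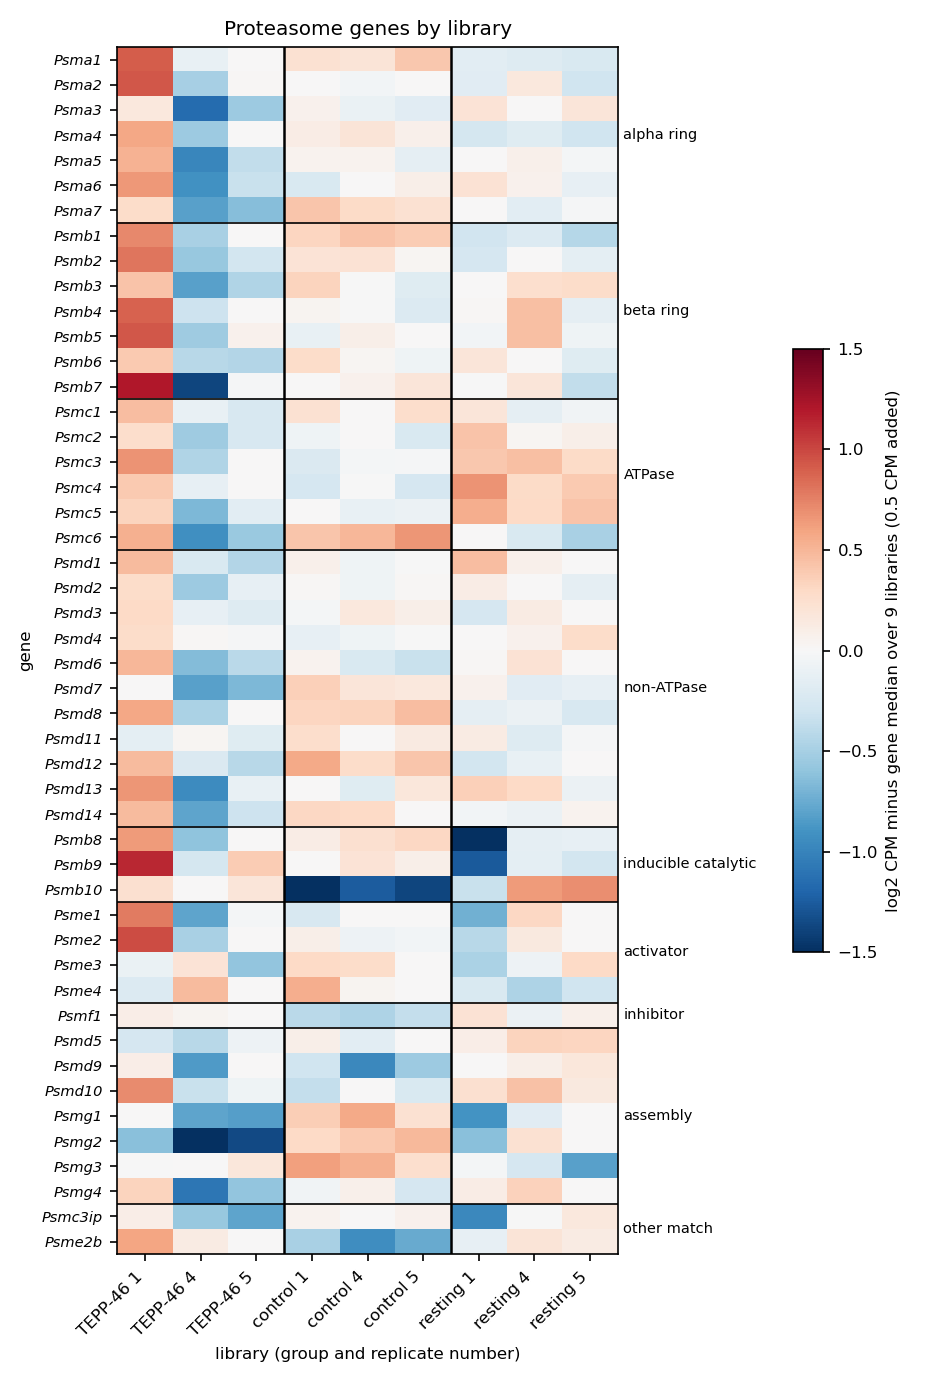
Log2 CPM (0.5 added) of each of the 48 tested proteasome genes in each library, minus the median of that gene over the 9 libraries, with genes in rows by class and libraries in columns by group. TEPP-46 replicate 1 is red and replicate 4 blue in most constitutive rows, Psmb10 is blue in the 3 control libraries, and Psmb8 and Psmb9 are darkest blue in resting replicate 1.

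The summed level of the 14 constitutive core subunits was 2707, 1131 and 1479 CPM in TEPP-46 cells, 1867 to 2030 CPM in control cells and 1661 to 1799 CPM in resting cells. The sum of ribosomal protein genes had the same order among TEPP-46 libraries. It was 39400, 9590 and 19700 CPM in TEPP-46 cells, 24810 to 32170 CPM in control cells and 17700 to 24670 CPM in resting cells. The nuclear RNA Malat1 was instead lowest of its group in TEPP-46 replicate 1. It had 2532, 12290 and 12820 CPM in TEPP-46 cells, 2067 to 4120 CPM in control cells and 4373 to 8385 CPM in resting cells. The 5 genes taken as signs of RNA quality, Malat1 and Neat1 and 3 mitochondrial genes, summed to 6200.0 to 16190.0 CPM in TEPP-46 cells, 6082 to 6368 CPM in control cells and 9123 to 11590.0 CPM in resting cells; none was called in TEPP-46 over control cells, and in control over resting cells mt-Co1 rose and mt-Cytb fell. The part of these measures in the spread of the core subunits was not tested, and in bulk RNA fewer cells of a kind and less RNA per cell cannot be told apart.

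In control over resting cells, 3 of the 48 tested proteasome genes were called and all 3 were lower, where 31.2% of all genes tested were called, 15.5% as higher and 15.8% as lower. These were Psmb10, Psme2b and Psmc4. The ATPase Psmc4 (chromosome 7, 28041707 to 28050101) had 223, 156 and 169 CPM in TEPP-46 cells and 142, 169 and 142 CPM in control cells, against 271, 207 and 222 CPM in resting cells. Every control library was below every resting library. Its log2 fold change in control over resting cells was -0.63 ± 0.21 (edgeR adjusted p = 0.0435). The call held under 5 of 16 alternative settings, with adjusted p of 0.0159 to 0.152 and log2 fold changes of -0.71 to -0.50.

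Over the 31 constitutive subunits the median log2 fold change was 0.08, against -0.04 over all genes tested, with extremes of -0.63 (Psmc4) and 0.76 (Psmc6). Groups did not overlap for 15 higher and 11 lower proteasome genes, against 59.2% of all genes, 29.2% higher and 30% lower. Psmb1, a noncatalytic beta subunit, had 225, 242 and 234 CPM in control cells, against 148, 156 and 134 CPM in resting cells (0.68 ± 0.27, edgeR adjusted p = 0.0828). Psma1 had 134, 132 and 152 CPM in control cells, against 103, 99.8 and 98 CPM in resting cells (0.48 ± 0.27, edgeR adjusted p = 0.195). Psmc6 had 165, 174 and 196 CPM in control cells, against 123, 105 and 88.0 CPM in resting cells (0.76 ± 0.33, edgeR adjusted p = 0.109). Among lid subunits, Psmd12 had 264, 215 and 238 CPM in control cells, against 147, 165 and 178 CPM in resting cells (0.55 ± 0.25, edgeR adjusted p = 0.113). All 4 genes were separated between the groups without passing the threshold. So was the assembly chaperone Psmg3, with 12.5, 11.8 and 9.58 CPM in control cells, against 7.84, 6.60 and 4.33 CPM in resting cells (0.85 ± 0.35, edgeR adjusted p = 0.0898). Psme4, which encodes the large nuclear activator PA200, had 53.2, 37.2 and 36.3 CPM in control cells, against 30.8, 26.1 and 29.4 CPM in resting cells (0.55 ± 0.26, edgeR adjusted p = 0.132).

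The count of calls depended on whether the TEPP-46 libraries entered the fit. Leaving libraries out changes the filter, the scaling, the estimate of spread and the adjustment together, and their separate parts were not tested. A fit of the 6 control and resting libraries alone called 15 proteasome genes, 8 higher (Psma1, Psma4, Psmb1, Psmc6, Psmd8, Psmd12, Psmg1 and Psmg3) and 7 lower (Psmb10, Psmc3, Psmc4, Psmc5, Psmd9, Psme2b and Psmf1), where 47.2% of all genes tested were called. With all groups in the fit, 10 were called without TEPP-46 replicate 1 (39.2% of all genes), 6 without replicate 4 (40.3%) and 2 without replicate 5 (29.8%).

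**Figure D4:**
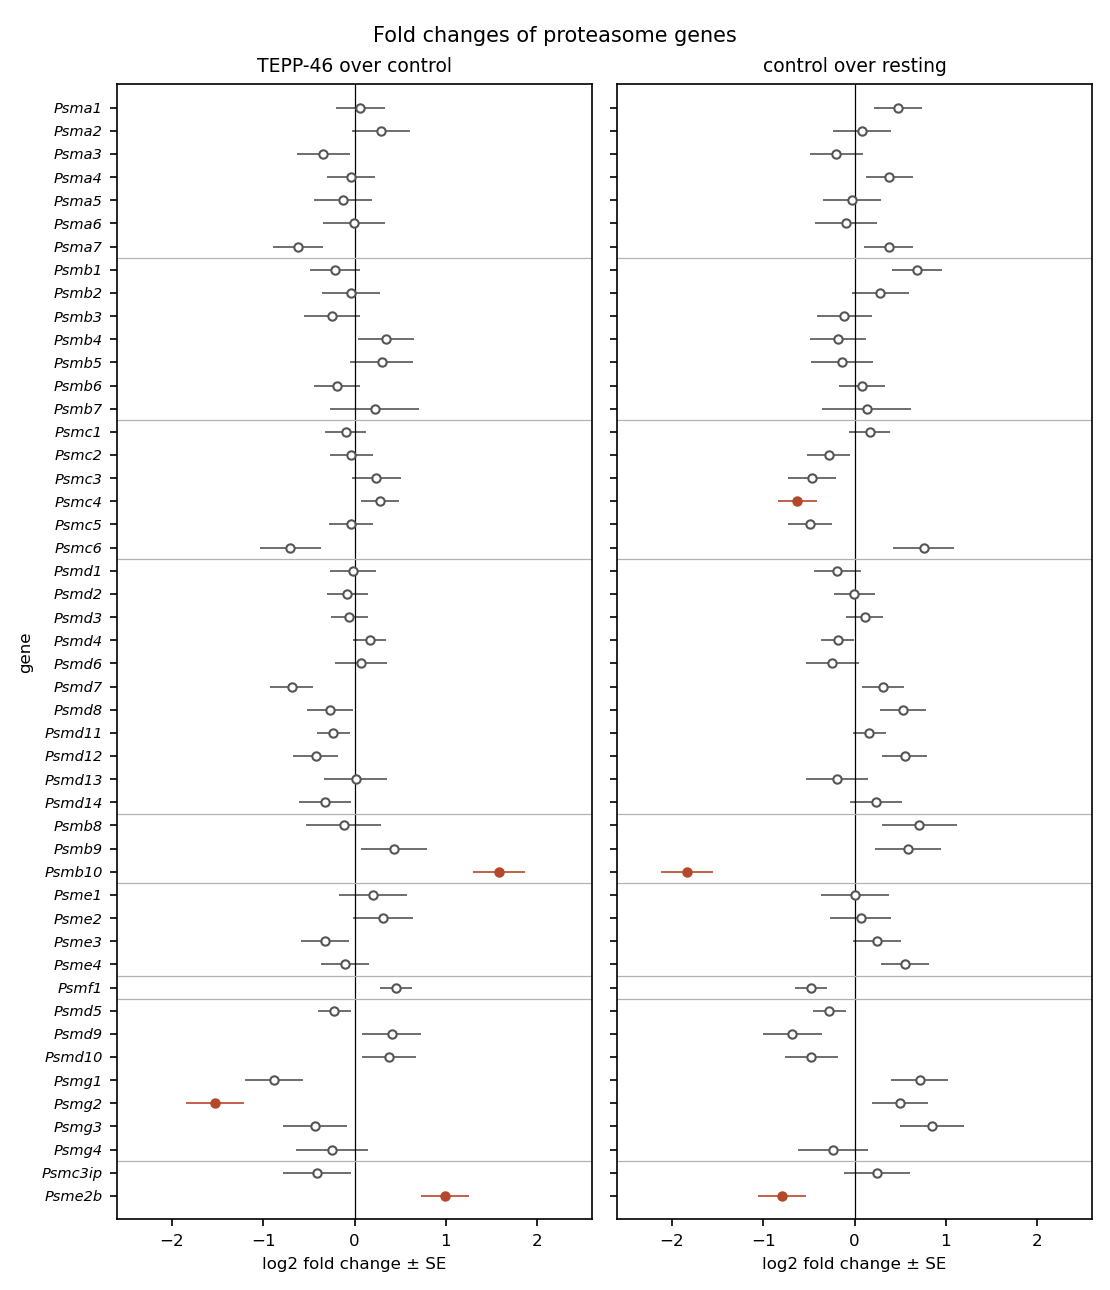
Log2 fold change ± SE of the 48 tested proteasome genes from the edgeR fit of 9 libraries, in TEPP-46 over control cells (left) and control over resting cells (right), with genes grouped by class and grey lines between classes. Filled red points had an adjusted p under 0.05. Psmb10 has the largest change in both panels, at 1.58 on the left and -1.84 on the right, and both panels use the same control libraries.

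In TEPP-46 over resting cells, none of the 48 tested proteasome genes was called, where 10.3% of all genes tested were called, 6.37% as higher and 3.92% as lower. The libraries did not overlap for 3 higher genes (Psma1, Psme4 and Psmg3) and 1 lower gene (Psmd5), against 26.8% of all genes, 12.6% higher and 14.1% lower. By edgeR 3 had an unadjusted p under 0.05, against 26.3% of all genes. DESeq2 called Psmd5, a chaperone of the regulatory particle, and Psmg2, both lower. Of all 12536 genes it called 16.7%, 1207 as higher and 883 as lower. The median log2 fold change was -0.08, with a range of -1.04 to 1.01. Without TEPP-46 replicate 1, 6 genes were called, all lower (Psma3, Psma7, Psmb3, Psmc5, Psmd7 and Psmg2). Of all 12982 genes tested in that fit, 14.6% were called, 1081 as higher and 816 as lower. Without TEPP-46 replicate 4 Psmb9 alone was called, as higher. Of all 12899 genes tested in that fit, 12.7% were called, 1043 as higher and 596 as lower.

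Genes of the interferon gamma pathway, which drives the inducible subunits, rose in TEPP-46 over control cells in 6 of 11 cases and none fell, where 9.72% of all genes were called higher. They were Irf1, Irf2, Irf9, Jak1, Ifngr1 and Nlrc5. Irf1, an interferon-induced transcription factor, had 474, 431 and 412 CPM in TEPP-46 cells and 167, 116 and 135 CPM in control cells, against 382, 315 and 195 CPM in resting cells (1.65 ± 0.26 in TEPP-46 over control cells, edgeR adjusted p = 0.00516). Irf9 rose by 1.49 ± 0.19 and the kinase gene Jak1 by 1.67 ± 0.25 (edgeR adjusted p = 0.00233 and 0.00384). The control libraries were below all TEPP-46 and all resting libraries in these 3 genes. The ligand gene Ifng had 4.12, 0 and 0.971 CPM in TEPP-46 cells and 3.19, 0.960 and 1.51 CPM in control cells, against 7.24, 12.7 and 10.4 CPM in resting cells, so few reads that its level in TEPP-46 and control cells was near the floor.

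In control over resting cells 3 of the 11 interferon genes rose (Irf8, Jak2 and Socs1) and 5 fell (Irf1, Irf9, Jak1, Ifngr1 and Ifng), against 15.5% and 15.8% of all genes. In TEPP-46 over resting cells 3 rose (Irf8, Nlrc5 and Jak2) and none fell, against 6.37% and 3.92% of all genes. Irf1 fell by 1.09 ± 0.26 and Irf9 by 1.21 ± 0.19 in control over resting cells (edgeR adjusted p = 0.0108 and 0.00156), while Irf8 rose by 3.97 ± 0.62 (edgeR adjusted p = 0.00164).

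The peptide loading genes, which act downstream of the proteasome by carrying its products to MHC class I molecules, rose in TEPP-46 over control cells in 4 of 11 cases (Tap1, Tap2, Tapbp and Pdia3), and 1 fell (Canx, with 654, 379 and 401 CPM in TEPP-46 cells and 999, 845 and 957 CPM in control cells), against 9.72% and 6.43% of all genes. Tap2, a subunit of the peptide transporter, had 868, 698 and 897 CPM in TEPP-46 cells and 324, 326 and 350.1 CPM in control cells, against 397, 670.0 and 703 CPM in resting cells (1.30 ± 0.24, edgeR adjusted p = 0.00911). Tapbp, which bridges the transporter to MHC class I, had 1303, 1255 and 1390.0 CPM in TEPP-46 cells and 589, 529 and 634 CPM in control cells, against 678, 1055 and 981 CPM in resting cells (1.17 ± 0.22, edgeR adjusted p = 0.009). Tap1 rose by 0.96 ± 0.26 (edgeR adjusted p = 0.0323) in TEPP-46 over control cells and by 1.5 ± 0.26 in TEPP-46 over resting cells (edgeR adjusted p = 0.00854). In control over resting cells 1 of the 11 rose (Canx, a chaperone of the endoplasmic reticulum) and 3 fell (Tap2, Tapbp and Pdia3), against 15.5% and 15.8% of all genes, and in TEPP-46 over resting cells Tap1 alone was called. Of 16 alternative settings, the calls in control over resting cells held under 6 for Tapbp and 11 each for Tap2 and Canx. Those in TEPP-46 over control cells held under 15 for Tapbp, 14 for Tap2, 11 for Canx and 9 for Tap1.

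**Figure D5:**
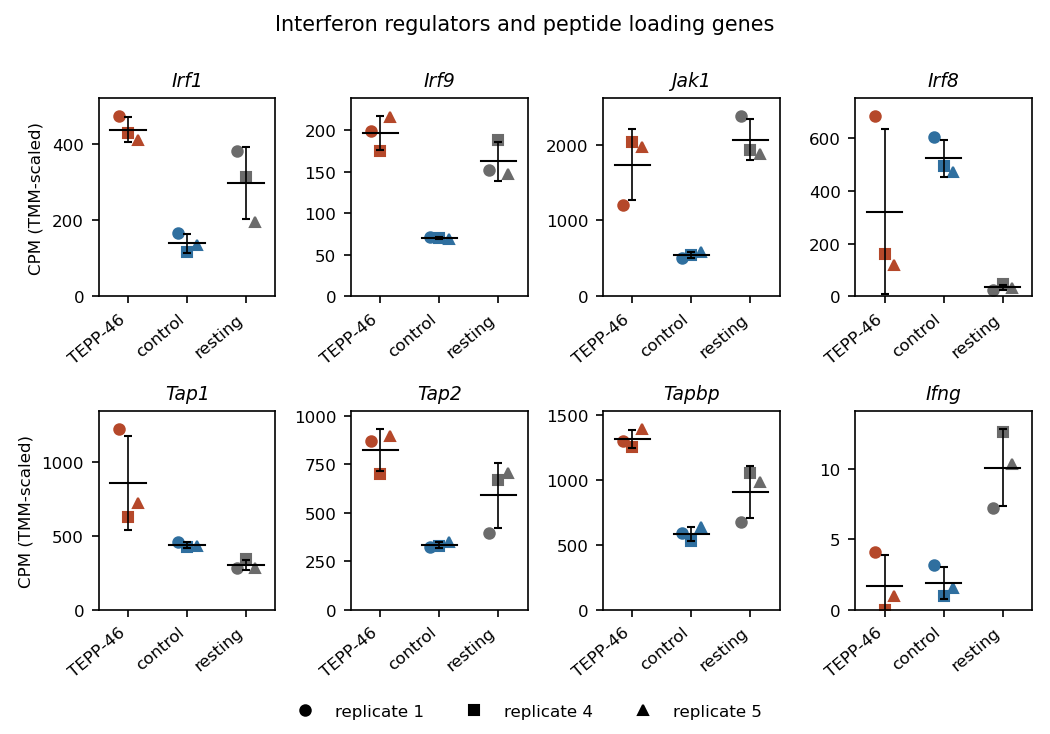
CPM (TMM-scaled) of interferon pathway genes (Irf1, Irf9, Jak1, Irf8 and Ifng) and peptide loading genes (Tap1, Tap2 and Tapbp) in TEPP-46, control and resting cells. Points are libraries, with the replicate number as the symbol, lines are means and bars are ± 1 SD (n = 3). The TEPP-46 libraries of Irf1, at 412 to 474 CPM, lie above all other libraries, and those of Ifng, at 0 to 4.12 CPM, do not.

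The summed markers of B cells, of natural killer cells and of neutrophils were, like Psmb10, lowest in the control libraries. Those of other spleen cells varied in other ways. Summed over 8 markers, all detected in each group, B cell markers stood at 1200, 2449 and 1039 CPM in TEPP-46 cells and 778, 457.7 and 616.6 CPM in control cells, against 2014, 2545 and 2275 CPM in resting cells. In TEPP-46 over control cells 5 of these 8 markers rose, against 9.72% of all genes, and in control over resting cells 4 fell, against 15.8% of all genes. Ighm and Cd74 made up most of the sum in each group. Single markers departed from it: Cd74 had 549 CPM in control replicate 1, above TEPP-46 replicates 1 and 5 at 322 and 309 CPM. Cd79b had 3.575 CPM in TEPP-46 replicate 1, below all control libraries at 3.84 to 8.82 CPM. Natural killer cell markers (5 genes) summed to 33.6 to 67.9 CPM in TEPP-46 cells and 5.64 to 7.68 CPM in control cells, against 23.5 to 98.7 CPM in resting cells. Klrk1 and Prf1 made up most of the TEPP-46 sum, at means of 27.2 and 18.85 CPM. Klrb1c did not share this order, with 0 counts in TEPP-46 cells, 1 in control cells and 75 in resting cells. Neutrophil markers (5 genes) summed to 0.825, 129.8 and 2.27 CPM in TEPP-46 cells and were all at 0 counts in control cells, against 87.1 to 149.7 CPM in resting cells. Of these, S100a8 and Camp were at 0 counts in TEPP-46 cells too. Platelet and red cell markers (5 genes) summed to 16.5, 269 and 83.2 CPM in TEPP-46 cells and 0.960 to 4.91 CPM in control cells, against 2.81 to 9.77 CPM in resting cells. TEPP-46 replicate 4 was the highest of its group in the B cell, neutrophil and platelet sums. In Psmb10 that library was the lowest of its group, at 94.5 CPM, as in all 5 inducible genes. It was also the lowest in 34 of the 48 tested proteasome genes, against 41.3% of all genes. Its counts of Psmb10 per count of Psmb7, at 5.11, were the highest of its group. The part of these cells in the Psmb10, interferon and peptide loading changes was not tested. Myeloid markers (8 genes) summed to 21.4 to 85.7 CPM in TEPP-46 cells and 20.9 to 33.1 CPM in control cells, against 45.9 to 72.6 CPM in resting cells. Dendritic cell markers (4 genes) summed to 8.25 to 32.8 CPM in TEPP-46 cells and 8.88 to 17.4 CPM in control cells, against 7.39 to 20.1 CPM in resting cells. CD8 T cell markers (2 genes) summed to 3.88 to 11.3 CPM in TEPP-46 cells and 8.07 to 10.1 CPM in control cells, against 9.05 to 22.2 CPM in resting cells.

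Of 13 genes known to regulate constitutive subunits, 2 fell in TEPP-46 over control cells (Nfe2l1 and Nfyb), where 6.43% of all genes fell. In control over resting cells 2 rose (Mafg and Nfyb) and 2 fell (Mafk and Nfyc), where 15.5% of all genes rose and 15.8% fell, and in TEPP-46 over resting cells Mafk fell. Nfe2l1, the factor that restores proteasome subunits when the proteasome is inhibited, had 103, 109.7 and 104 CPM in TEPP-46 cells and 182, 159.6 and 144 CPM in control cells, against 138, 108 and 125 CPM in resting cells (-0.62 ± 0.18 in TEPP-46 over control cells, edgeR adjusted p = 0.0455, called under 6 of 16 alternative settings with adjusted p of up to 0.16). Its relative Nfe2l2 had 83.3, 62.2 and 70.2 CPM in TEPP-46 cells and 82.4, 56.2 and 50.7 CPM in control cells, against 82.9, 80.3 and 83.5 CPM in resting cells, and was not called. Nfyb, a subunit of the factor that binds the CCAAT box, fell by 1.2 ± 0.23 in TEPP-46 over control cells (edgeR adjusted p = 0.0101) and rose by 0.98 ± 0.23 in control over resting cells (edgeR adjusted p = 0.0103).

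Among 19 proteasome partners and shuttles, 1 fell in TEPP-46 over control cells, where 6.43% of all genes fell. In control over resting cells 3 rose (Ecpas, Rad23b and Akirin2) and 2 fell (Zfand2a and Fbxo7), where 31.2% of all genes were called. The gene that fell was Uchl5, a deubiquitinase of the regulatory particle, with 109.5, 46.6 and 47.9 CPM in TEPP-46 cells and 213, 152 and 168 CPM in control cells, against 87.3, 101 and 104 CPM in resting cells (-1.38 ± 0.32, edgeR adjusted p = 0.0208). Ecpas, an adaptor of the proteasome, had 119, 107 and 112 CPM in control cells, against 57.5, 56.0 and 49.5 CPM in resting cells (1.05 ± 0.19, edgeR adjusted p = 0.00324). Akirin2, an importin-bound factor that carries proteasomes into the nucleus, was among the genes that rose. None of 10 ubiquitin supply genes was called in any comparison by edgeR, where 31.2% of all genes were called in control over resting cells, 16.2% in TEPP-46 over control cells and 10.3% in TEPP-46 over resting cells; these shares apply to the next list too. Of 10 subunits of the COP9 signalosome, a complex related to the lid, none was called in TEPP-46 over control cells, 1 rose (Cops7b) and 1 fell (Cops8) in control over resting cells, and Cops8 fell in TEPP-46 over resting cells.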

How the data were processed

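Counts per gene were used as the authors deposited them, as raw whole numbers in 1 table of 9 libraries; per the labels' protocols, libraries were made with a low-input kit and sequenced on an Illumina instrument. The genome build was GRCm38 and DESeq2 was used, per the submitters' processing notes. No source used here names the aligner, the counter, its use of strand or the annotation, so overlapping and near-identical genes may exchange reads. Symbols and gene types came from GENCODE M21. Genes were filtered with filterByExpr (minimum count 10, minimum total 15), scaled by TMM and fitted over all 9 libraries with edgeR 4.0.16 (glmQLFit and glmQLFTest, R 4.3.3), with Benjamini-Hochberg adjustment over 12536 genes and a threshold of 0.05. All adjusted p-values are from that fit unless DESeq2 1.42.0 is named. CPM are TMM-scaled counts per 1000000. Ratios within a library were compared by exact two-sided permutation tests (scipy 1.17.1). The fitting code was tested on simulated counts. Genes named are the inducible genes and their counterparts, all called genes and up to 2 members of each class and 4 of each pathway list with the lowest adjusted p in a main comparison; others named were chosen after their values were seen. The proteasome genes and the other lists were chosen with earlier results of these data known. A gene of the interferon list is not reported here. The floor of 3 counts covers counting error only.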

Additional observations from a re-analysis of the deposited data

How the results depend on the processing

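Psmb10 kept its direction and its call in both main comparisons under all 16 alternatives. The number of proteasome genes called in control over resting cells was 3, where 31.2% of all genes tested were called. It was 5 with DESeq2 (36.2% of all genes), 1 with no filter on low counts (18.2%) and 15 in a fit of those groups alone (47.2%). With 1 library left out it was 1 to 10, where 17.9% to 40.3% of all genes were called. In TEPP-46 over control cells it was 3 (16.2% of all genes), against 5 with DESeq2 (24.4%) and 5 with total counts as the only scaling (16.8%). With 1 library left out it was 1 to 15 (3.05% to 33.9% of all genes). In TEPP-46 over resting cells it was 0 (10.3% of all genes), against 2 with DESeq2 (16.7%) and 1 with no filter (7.47%). With 1 library left out it was 0 to 6 (3.3% to 14.6% of all genes). A setting added after seeing the data, without resting replicate 1 and TEPP-46 replicate 4, gave 5 calls in control over resting cells and 2 in TEPP-46 over resting cells. Scaling by total counts moved the median log2 fold change of all genes to -0.09 in TEPP-46 over control cells, against 0.04 with TMM, and to 0.07 in control over resting cells, against -0.04. It gave 922 higher and 1182 lower genes in TEPP-46 over control cells, against 1219 and 806 with TMM. The cause of these differences was not tested.

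With the replicate number as a block, 1 proteasome gene was called in control over resting cells (Psmb10), where 26.6% of all genes were called. It called 2 in TEPP-46 over control cells (11% of all genes) and 0 in TEPP-46 over resting cells (5.62%). Psme1 changed sign at -0.0089 in control over resting cells. The numbers are not shown to pair libraries: over 9 same-numbered pairs the correlation of deviations from group means ran from -0.12 to 0.09, and 0 pairs exceeded 0.1.

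Values that changed sign when 1 library was left out were never called. In control over resting cells the log2 fold change ran from -0.24 to 0.24 for Psme1, -0.0815 to 0.18 for Psme2, -0.24 to 0.0482 for Psmb5, -0.0187 to 0.18 for Psmb6, -0.0144 to 0.26 for Psmb7 and -0.039 to 0.46 for Psmc3ip. In TEPP-46 over control cells it ran from -0.50 to 0.14 for Psmb8, -0.0139 to 0.71 for Psmb9, -0.30 to 0.50 for Psme1, -0.22 to 0.59 for Psme2, -0.20 to 0.58 for Psmb5, -0.63 to 0.64 for Psmb7, -0.32 to 0.0856 for Psme4, -0.10 to 0.57 for Psmb4 and -1.76 to 0.54 for Ifng. In TEPP-46 over resting cells it ran from -0.30 to 0.50 for Psme1 and -0.15 to 0.65 for Psme2. Depth limits Psma8, Psmb11 and Ifng, whose counts lay at or near the floor of 3 in several libraries.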
